A study of Mus musculus with 6 samples.

Results

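Secreted and membrane proteins enter the endoplasmic reticulum (ER) through a translocon and are folded there by chaperones and disulfide isomerases. When unfolded proteins build up, 3 membrane sensors (the kinase and endonuclease IRE1, the kinase PERK and the transcription factor ATF6) start the unfolded protein response (UPR), which raises chaperones and the machinery of ER-associated degradation (ERAD). T cells enlarge this folding capacity when they are activated and begin to make cytokines, surface receptors and cytotoxic granule proteins.

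Transcript levels of 41 genes of ER folding, the UPR, ERAD, translocation and ER export were compared in mouse CD8+ T cells kept with neutrophil extracellular traps (NETs) or without them. NETs are meshes of chromatin studded with neutrophil granule proteins that neutrophils expel. The genes were taken by symbol from 22064 listed genes, and the set was drawn up with earlier results of these data known. All 41 had values and all 41 were among the 12546 genes tested. They comprised 8 genes of the ER Hsp70 and Hsp90 chaperone system, 8 lectin chaperones and disulfide isomerases, 3 other luminal or secreted factors, 6 UPR sensors and transcription factors, 9 ERAD genes, 5 translocon genes and 2 genes of the COPII coat, which buds vesicles from the ER.

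Splenic CD8+ T cells of BALB/c mice, purified with a CD8a selection kit, received NETs at 10 μg/mL or no NETs, and the culture lasted 48 h. The mice were females bought at 6 to 8 weeks of age. The NETs had been shed by neutrophils after stimulation with the phorbol ester PMA, and no source used here says whether the T cells of these libraries were also stimulated through their receptor. Each group had 3 samples, called biosamples in the labels. Whether these stem from different mice or cultures is not stated, so the p-values reflect only how these samples vary, and that variation may be technical.

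Library totals ranged from 18696355 to 19425700 estimated counts. Principal component 1 (81.1% of the variance) separated the groups, and principal component 2 (8.29%) separated the libraries numbered 1 from the rest. The summed level of 8 CD8 T cell markers was 2035 to 2257 CPM (counts scaled to a common library size) with NETs and 2865 to 3305 CPM in the controls, and 7 of the 8 were lower with NETs, Cd8a among them, whereas Cd5 was higher. Summed levels were higher with NETs for markers of dendritic cells (236 to 311 against 79.1 to 90.9 CPM), neutrophils (40.8 to 67.3 against 20.7 to 24.5 CPM), NK cells (13.9 to 15.4 against 3.20 to 5.29 CPM) and macrophages (68.5 to 76.7 against 44.0 to 67.6 CPM), and lower for CD4 T cells (65.9 to 79.8 against 81.5 to 92.3 CPM). Most of the dendritic cell sum came from Cd74 and H2-Aa, which B cells also express. Of the 7 tested genes of that list 5 were higher and 1 lower. Xcr1 (10.0 against 1.43 CPM), Batf3 (15.8 against 3.57 CPM) and Zbtb46 (5.65 against 3.22 CPM) were also higher. Itgax was lower (5.14 against 9.91 CPM). The NK cell sum rested on Tyrobp and Fcer1g, which myeloid cells also express. Of the macrophage sum, Lyz2 was not called and control sample 1 nearly reached the NET samples. In the CD4 T cell list 3 of 4 genes were lower, but Zbtb7b was higher (32.2 against 24.0 CPM). In the neutrophil list 6 of 8 tested genes were higher, whereas Cxcr2 was not called (8.21 against 10.5 CPM). Of the granule genes in this list, Mpo (12.5 against 8.48 CPM), Lcn2 (9.68 against 0.232 CPM) and Mmp8 (8.89 against 0.638 CPM) were higher. Prtn3 was not called, and Elane, Ltf, Camp and Ngp did not pass the filter on low counts.

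The ER stress response element (ERSE), which ATF6 and NF-Y are known to bind together, is a CCAAT box and a CCACG box set 9 bases apart. Promoter windows of 250 bases before and 50 after the start were searched on both strands in RefSeq sequence of build GRCm38.p6. Only exact matches were counted, so elements with altered boxes or outside the window were missed. Of the 41 genes 34 had such a window. The starts are those of RefSeq, and a check of the first 20 bases after them against GENCODE transcripts matched 28 of 39 windows. No window was available for Atf6, Manf, Hyou1, Derl1, Sec61a1, Ostc and Hspa13. An ERSE was found in 9 of the 34 genes, or 26.5%, against 37 of 27025 genes with a window, or 0.137%. The 37 include the 9, and the set was chosen to hold genes of the UPR. A higher share is therefore no test of enrichment. The stretches below are shown because these genes include the main ER chaperones. Each runs 5′ to 3′ on the strand of its gene, ends before the start site and carries the boxes in capitals, as CCAAT and CCACG or, on the other strand, as CGTGG and ATTGG.
Hspa5, chr2:34772005-34772063, plus strand: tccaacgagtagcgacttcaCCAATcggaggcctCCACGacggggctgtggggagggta
Hsp90b1, chr10:86705513-86705676, minus strand: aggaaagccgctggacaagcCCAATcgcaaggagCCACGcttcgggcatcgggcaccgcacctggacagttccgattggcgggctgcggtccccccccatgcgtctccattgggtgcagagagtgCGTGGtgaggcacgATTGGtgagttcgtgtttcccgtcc
Calr, chr8:84847055-84847113, minus strand: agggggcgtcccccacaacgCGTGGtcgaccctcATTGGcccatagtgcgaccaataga
Pdia6, chr12:17266471-17266529, plus strand: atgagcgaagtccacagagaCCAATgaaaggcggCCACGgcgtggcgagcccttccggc
Creld2, chr15:88819500-88819558, plus strand: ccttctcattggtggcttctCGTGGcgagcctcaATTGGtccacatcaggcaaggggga
Syvn1, chr19:6046512-6046570, plus strand: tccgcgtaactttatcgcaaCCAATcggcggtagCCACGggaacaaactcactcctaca
Derl3, chr10:75893222-75893280, plus strand: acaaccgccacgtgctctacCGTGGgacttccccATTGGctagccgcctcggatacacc
Canx, chr11:50325780-50325838, minus strand: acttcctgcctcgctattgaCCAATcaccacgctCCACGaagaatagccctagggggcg
Dnajc3, chr14:118937807-118937865, plus strand: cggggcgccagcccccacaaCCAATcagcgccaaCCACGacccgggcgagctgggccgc

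Hsp90b1 held 2 exact ERSEs in its window and the other 8 genes held 1 each. ERSE-II, a related element of ATTGG, 1 base and CCACG, was found in Herpud1 and Dnajb11, against 0.044% of all genes. In Herpud1 it lay before the start, as shown next.
Herpud1, chr8:94386357-94386407, plus strand: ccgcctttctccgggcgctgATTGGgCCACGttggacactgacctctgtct
The unfolded protein response element TGACGTGG, known as a site of XBP1 and ATF6, was found in Vcp, Sec24d and Txndc5, against 0.714% of all genes. The cyclic AMP element TGACGTCA and the amino acid response element TGATGNAAT, a site type of ATF4, were found in 0 of the 34 genes and in 2.03% and 1.08% of all genes. Such matches describe the letters of these windows and do not show binding. As the set was chosen to hold genes of the UPR, the shares of these elements do not test enrichment either.

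NETs raised 28 of the 41 genes and lowered 0 at an adjusted p below 0.05 (edgeR quasi-likelihood test, Benjamini-Hochberg adjustment over all genes tested). That is 68.3% of the genes, against 22.3% of all tested genes higher and 22.3% lower with NETs. No gene of the 41 was lower at an unadjusted p below 0.05 either, and the other count tests run, DESeq2 and limma-voom, also called 0 lower. The median log2 fold change of the 41 genes was 0.36, and that of all tested genes was -0.01. When a log2 fold change above 0.58 was also required, 12 of the 41 were higher, against 13.4% of all genes. The 3 NET samples lay above the 3 control samples in 33 of the 41 genes, among them all 28 that were called, against 27.4% of all genes. In bulk RNA, a change in the share of cells of a type and a change in RNA per cell cannot be told apart.

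The 41 genes held 1.39%, 1.33% and 1.38% of the counts of NET samples 1 to 3 and 0.922%, 0.943% and 0.924% of those of control samples 1 to 3. Their share of the transcript pool was thus higher in every NET sample than in any control sample. Plasma cells, which secrete antibody, carry abundant ER transcripts, and B lineage markers were also higher with NETs. The summed level of 12 B cell markers was 151 to 243 CPM with NETs and 35.0 to 45.3 CPM in the controls. The summed level of 6 plasma cell markers, of 13 in the list, was 472 to 618 CPM and 346 to 376 CPM, most of it from Irf4 and Prdm1, which activated T cells also express. Jchain, the immunoglobulin joining chain, had 30.3, 28.9 and 26.3 CPM with NETs and 3.75, 7.05 and 6.35 CPM without. Mzb1, an ER chaperone cofactor of B and plasma cells, had 18.0, 13.5 and 14.5 CPM against 1.87, 3.04 and 3.20 CPM, and both genes were higher with NETs. Of the same list, Sdc1 (3.13 against 2.07 CPM, edgeR adjusted p = 0.0514) and Pou2af1 (18.79 against 16.45 CPM, edgeR adjusted p = 0.331) were not called. Immunoglobulin heavy and light chain genes were not analysed here. The part of these cells in the changes of the 41 genes was not tested.

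**Figure D1:**
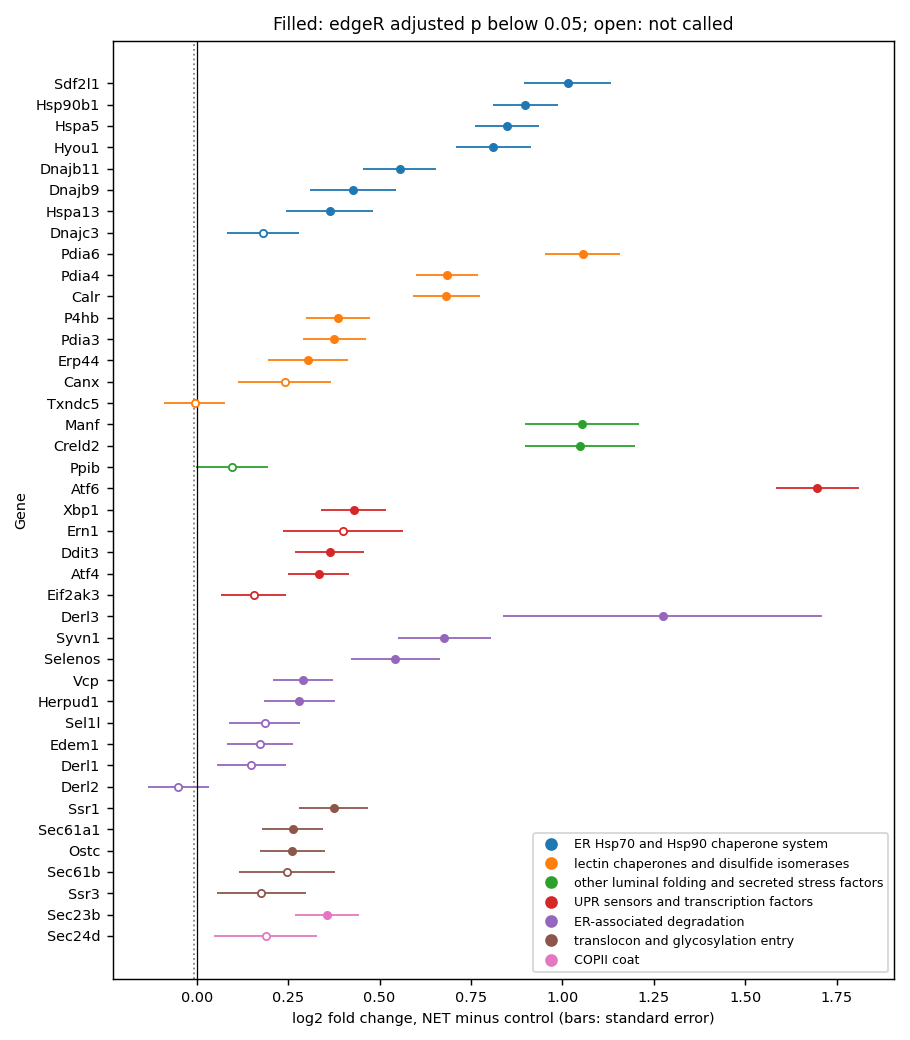
Log2 fold change (NET minus control) of each of the 41 genes, with its standard error, grouped and coloured by role. Filled points mark the 28 genes with an edgeR adjusted p below 0.05 and open points the other 13, the dotted line marks the median of all tested genes (-0.01), and Atf6 lies farthest to the right at 1.70.

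The Hsp70 and Hsp90 system of the ER lumen rose almost as a whole. Of its 8 genes 7 were higher with NETs and 0 lower, against 22.3% of all tested genes in each direction. The median log2 fold change of the 8 genes was 0.68. In all 8 the NET samples lay above the control samples without overlap, against 27.4% of all tested genes. Hspa5 (chromosome 2, 34772090 to 34776529, GRCm38.p6) encodes BiP, the ER Hsp70 that binds unfolded chains and holds the 3 sensors inactive. It had 1273, 1205 and 1296 CPM in NET samples 1 to 3 and 659, 723 and 715 CPM in control samples 1 to 3. All NET samples were above all controls, and the log2 fold change was 0.85 ± 0.09 (SE), with an edgeR adjusted p of 4e-05. Hsp90b1 (chromosome 10, 86690841 to 86705444) encodes GRP94, the ER Hsp90, which folds integrins and Toll-like receptors. It had 2033, 1901 and 2098 CPM with NETs and 1032, 1125 and 1078 CPM without, a log2 fold change of 0.90 ± 0.09 (edgeR adjusted p = 3.05e-05). The spread within each group was thus small beside the distance between them.

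Hyou1, which encodes GRP170, a nucleotide exchange factor of BiP, had 332, 313 and 376 CPM with NETs and 208, 195 and 179 CPM without. Its log2 fold change was 0.81 ± 0.10. Sdf2l1, which encodes a partner of BiP and its J-protein ERdj3, had 114, 104 and 85.5 CPM against 53.8, 50.9 and 45.1 CPM, a log2 fold change of 1.01 ± 0.12. In both genes the lowest NET sample stood well above the highest control. Of the J-proteins that deliver clients to BiP, Dnajb11 (ERdj3) rose by 0.55 ± 0.10 and Dnajb9 (ERdj4) by 0.43 ± 0.12 on the log2 scale. Hspa13, an Hsp70-type ATPase of microsomes, rose by 0.36 ± 0.12. Dnajc3, the J-protein P58IPK that also inhibits PERK, was not called, with a log2 fold change of 0.18 ± 0.10 (edgeR adjusted p = 0.163) although its NET values of 172 to 188 CPM lay above the control values of 140 to 171 CPM. The calls of 2 of these genes depended on single libraries. Without control sample 2 the edgeR adjusted p of Dnajb9 was 0.0501 and that of Hspa13 0.0542. Hspa13 also missed the threshold without NET sample 2 (0.0623), NET sample 3 (0.0996) or control sample 1 (0.0774).

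**Figure D2:**
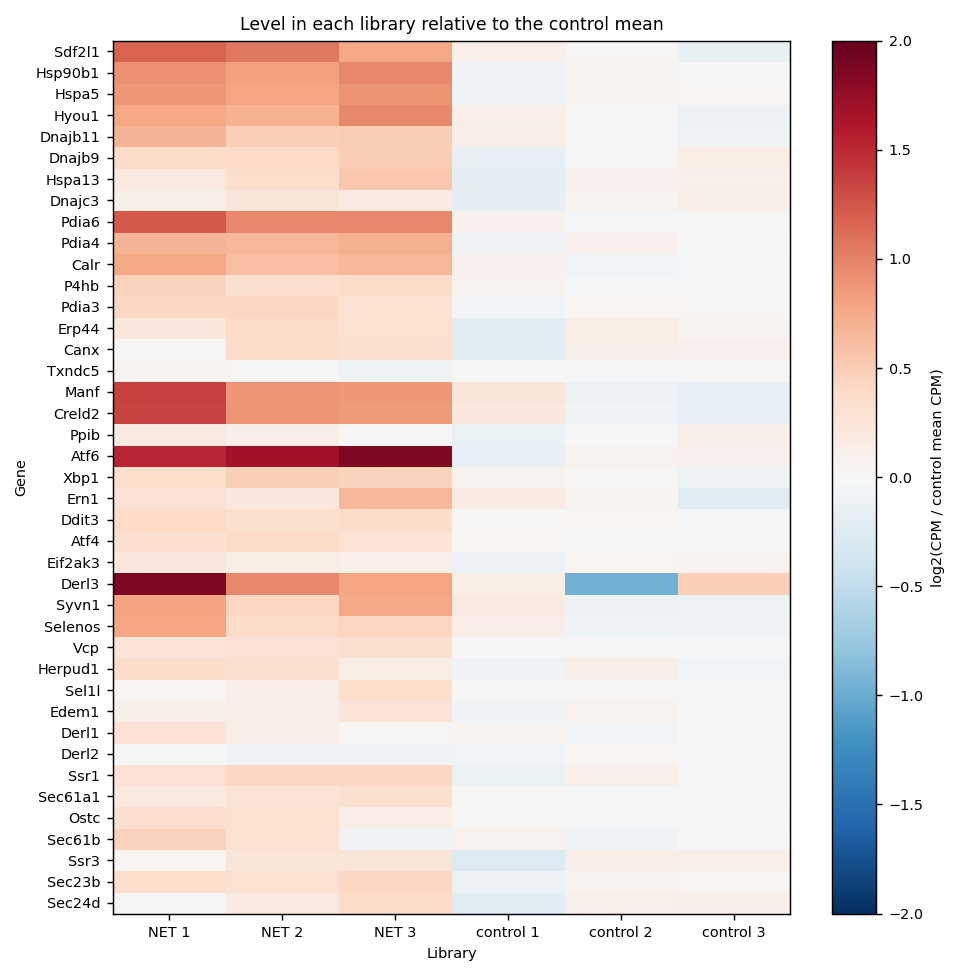
Level of each of the 41 genes (rows, ordered by role and fold change) in each of the 6 libraries (columns), as log2 of the CPM divided by the control mean CPM, with red above and blue below the control mean. The 3 NET columns are red for most rows, most strongly for Atf6, Derl3, Pdia6, Manf, Creld2 and Sdf2l1, and NET sample 1 differs from NET samples 2 and 3 in Manf, Creld2 and Derl3.

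Among lectin chaperones and disulfide isomerases 6 of 8 genes were higher and 0 lower, with a median log2 fold change of 0.38. Pdia6, which encodes the isomerase P5, a known partner of BiP that damps IRE1 signaling, led the group. It had 603, 504 and 499 CPM with NETs and 272, 250 and 250 CPM without. The NET values were near 2-fold higher in every sample, and the log2 fold change was 1.06 ± 0.10 (edgeR adjusted p = 2.56e-05). Pdia4 (ERp72) had 261, 259 and 268 CPM against 156, 173 and 162 CPM, a log2 fold change of 0.68 ± 0.08. Calr encodes calreticulin, the soluble lectin chaperone that also stores ER calcium and serves in peptide loading of MHC class I. It had 1587, 1408 and 1478 CPM with NETs and 981, 896 and 911 CPM in controls, a log2 fold change of 0.68 ± 0.09 (edgeR adjusted p = 0.00022).

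Smaller rises were found for P4hb, the archetypal protein disulfide isomerase (0.39 ± 0.09), Pdia3, the ERp57 that works with the lectin chaperones (0.38 ± 0.09), and Erp44, which retains ERO1 oxidases and unassembled clients (0.30 ± 0.11), all on the log2 scale. The call of Erp44 did not hold without NET sample 2 (edgeR adjusted p = 0.125), NET sample 3 (0.0851), control sample 1 (0.107) or control sample 3 (0.0722), nor without the filter on low counts (0.0524). Canx, the membrane-bound lectin calnexin, had 809, 1034 and 996 CPM with NETs and 683, 867 and 852 CPM without. Sample 1 was the lowest of both groups, the groups overlapped, and the change was not called (log2 fold change 0.24 ± 0.13, edgeR adjusted p = 0.150). Without NET sample 1 the edgeR adjusted p of Canx was 0.0469, and without both libraries numbered 1 it was 0.0345. Txndc5, a thioredoxin-domain isomerase abundant in plasma cells, had 96.8, 95.2 and 87.6 CPM with NETs and 93.8, 92.5 and 94.3 CPM without. Its groups overlapped, and its log2 fold change was -0.01 ± 0.08 (edgeR adjusted p = 0.962).

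Manf and Creld2, both small luminal proteins that are secreted under ER stress, were higher with NETs. Manf (chromosome 9, 106888753 to 106891938), a neurotrophic factor that also binds BiP, had 329, 236 and 233 CPM with NETs and 152, 118 and 115 CPM without. Creld2, which has isomerase-like activity, had 93.1, 67.9 and 66.4 CPM against 42.5, 34.7 and 32.7 CPM. Sample 1 was the highest of each group for both genes, and all NET values lay above all control values. The log2 fold changes were 1.05 ± 0.16 for Manf (edgeR adjusted p = 0.000432) and 1.05 ± 0.15 for Creld2 (edgeR adjusted p = 0.00033). Ppib, the ER cyclophilin B, had 222, 214 and 195 CPM with NETs and 179, 198 and 213 CPM without, and its overlapping groups gave a log2 fold change of 0.10 ± 0.10 that was not called. Counting may have mixed overlapping genes here, since Manf shares exonic bases with Dcaf1 and Rbm15b, and Ppib shares 825 exonic bases with Snx22 on the opposite strand.

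Atf6 showed the largest log2 fold change of the 41 genes. Atf6 (chromosome 1, 170704457 to 170868585) encodes the sensor that is cut in the Golgi and then activates chaperone genes. It had 166, 185 and 208 CPM in NET samples 1 to 3 and 51.1, 60.4 and 60.9 CPM in the controls. Its mean level was 3.24-fold higher with NETs, a log2 fold change of 1.70 ± 0.11 (edgeR adjusted p = 2.06e-06), and the lowest NET sample was far above the highest control. The other sensors did not pass the test. Ern1, which encodes IRE1α, had 11.2, 10.6 and 14.6 CPM against 10.3, 9.49 and 7.79 CPM, and its log2 fold change was 0.40 ± 0.16 (edgeR adjusted p = 0.0716). Eif2ak3, which encodes PERK, had 83.3, 79.9 and 76.6 CPM against 66.5, 73.5 and 75.3 CPM (0.16 ± 0.09, edgeR adjusted p = 0.177). In both of these sensor genes the groups lay side by side without overlap, at a distance small beside their spread.

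The transcription factors downstream of the sensors also rose, with smaller log2 fold changes than Atf6, a difference that was not tested. Xbp1, whose mRNA IRE1 splices, had 224, 247 and 242 CPM with NETs and 185, 179 and 165 CPM without, a log2 fold change of 0.43 ± 0.09 (edgeR adjusted p = 0.00314). Atf4, whose translation PERK favours, had 300, 311 and 287 CPM against 244, 235 and 233 CPM, a log2 fold change of 0.33 ± 0.08 (edgeR adjusted p = 0.00853). Ddit3, which encodes CHOP, the UPR factor linked to cell death, had 28.0, 26.4 and 27.3 CPM against 21.1, 21.7 and 20.8 CPM, a log2 fold change of 0.36 ± 0.09 (edgeR adjusted p = 0.0103). In all 3 genes the samples of a group lay close together and the groups did not overlap. The edgeR adjusted p of Atf4 was 0.0503 without control sample 2. The deposited values sum over the transcripts of a gene, so the splicing of Xbp1 and the cleavage of the ATF6 protein were not measured. Ddit3 shares 68 exonic bases with Mars on the opposite strand, and because it is not stated whether counting used the strand, its level is uncertain to that extent.

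Of the 9 ERAD genes 5 were higher and 0 lower, with a median log2 fold change of 0.28. Syvn1, which encodes HRD1, the ubiquitin ligase at the core of ERAD, had 74.6, 57.1 and 72.3 CPM with NETs and 48.3, 39.4 and 39.8 CPM without. All NET samples exceeded all controls, with a log2 fold change of 0.68 ± 0.13 (edgeR adjusted p = 0.00178). Selenos, a selenoprotein that links the retrotranslocation complex to the ATPase VCP, had 73.7, 56.1 and 57.5 CPM against 47.0, 40.5 and 40.9 CPM, a log2 fold change of 0.54 ± 0.12. Vcp (p97), which pulls substrates out of the membrane, had 755, 771 and 788 CPM against 627, 629 and 635 CPM, a log2 fold change of 0.29 ± 0.08. Its groups were tight and well separated, with SDs of 16.3 and 4.16 CPM (n = 3). Herpud1, a stress-induced scaffold of the HRD1 complex, rose by 0.28 ± 0.10 on the log2 scale.

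Derl3, a derlin that in mice is found in secretory cells, had the largest fold of the ERAD genes at the lowest level of all 41. Its estimated counts were 30.03, 16 and 14 with NETs and 9, 4 and 11 without, or 1.04 ± 0.44 CPM against 0.424 ± 0.189 CPM (SD, n = 3). The groups did not overlap, but NET sample 1 alone held about as many counts as NET samples 2 and 3 together. The log2 fold change was 1.27 ± 0.44 (edgeR adjusted p = 0.0367), and without NET sample 1 it was 0.87 (edgeR adjusted p = 0.154). The call was also lost without control sample 1 (0.0606) or control sample 2 (0.128), and with DESeq2 (0.0646).

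The other 4 ERAD genes were not called. Sel1l, the partner that stabilises HRD1, had a log2 fold change of 0.19 ± 0.10 (edgeR adjusted p = 0.149), and Edem1, a mannosidase-like protein that delivers glycoproteins to it, one of 0.17 ± 0.09 (0.141). Derl1, a derlin of the retrotranslocation channel, had 138, 125 and 115 CPM against 118, 110 and 114 CPM. Derl2, its homolog, had 61.1, 57.6 and 58.4 CPM against 59.1, 62.9 and 61.3 CPM. The groups overlapped in both derlins, and their log2 fold changes were 0.15 ± 0.09 and -0.05 ± 0.08. With any of NET sample 1 and control samples 1, 2 and 3 left out, 3 rather than 5 of the 9 ERAD genes were called, and the same count was found with both libraries numbered 1 left out. Herpud1 lost its call without NET sample 1 (edgeR adjusted p = 0.102), NET sample 2 (0.0960), control sample 1 (0.0819) or control sample 3 (0.121), and Vcp without control sample 2 (0.0764) or control sample 3 (0.0531). Derl2 and Syvn1 share exonic bases with Mis12 and Mrpl49 on the opposite strand.

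The genes of protein entry and exit had the lowest group medians. Of the 5 translocon genes 3 were higher and 0 lower, with a median log2 fold change of 0.26. Ssr1, a subunit of the translocon-associated protein complex, had 276, 300 and 299 CPM with NETs and 205, 242 and 227 CPM without, a log2 fold change of 0.37 ± 0.09. Sec61a1, the channel subunit, rose by 0.26 ± 0.08 and Ostc, a subunit of the oligosaccharyltransferase, by 0.26 ± 0.09. Ssr3 (0.18 ± 0.12) and Sec61b, the small channel subunit (0.25 ± 0.13), were not called, and in both the groups overlapped. Only 1 of the 5 was called without NET sample 2, control sample 2 or control sample 3. Sec61a1 missed the threshold in each of these fits (edgeR adjusted p = 0.0643, 0.123 and 0.0750), as did Ostc (0.0935, 0.130 and 0.0798). Ostc also missed it without NET sample 1 (0.0964) or control sample 1 (0.0542), whereas Sec61b was called without NET sample 3 (0.0127). Of the COPII coat, Sec23b, an inner coat subunit, had 139, 134 and 145 CPM against 101, 114 and 112 CPM and rose by 0.36 ± 0.09 on the log2 scale. Sec24d, a cargo-binding subunit, had 19.8, 22.6 and 26.2 CPM against 17.0, 21.5 and 21.7 CPM, with overlapping groups and a log2 fold change of 0.19 ± 0.14.

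Levels were compared between genes only per transcript length, in FPKM (fragments per kilobase of transcript, scaled for library size). In control cells the order was led by Calr with 485 ± 31.5 FPKM (SD, n = 3), Hsp90b1 with 393 ± 12.8, Pdia3 with 321 ± 6.06 and Hspa5 with 277 ± 9.81 FPKM. These 4 were separated by more than their SDs. With NETs, Calr at 789 ± 54.0 and Hsp90b1 at 743 ± 42.9 FPKM lay within the SD of Calr of each other, and Hspa5 at 506 ± 22.9 FPKM stood above Pdia3 at 422 ± 17.1 FPKM. Manf moved from rank 9 to rank 5 and Pdia6 from rank 12 to rank 6, at 325 ± 68.7 and 256 ± 29.6 FPKM, a difference about as large as the SD of Manf. Atf6 moved from rank 37 to rank 31, from 7.64 ± 0.61 to 25.2 ± 2.85 FPKM, and so remained among the less abundant of the 41. The lowest ranks in both groups were held by Derl3, Ern1, Sec24d and Dnajb9. The summed FPKM of the 41 genes was 5948, 5515 and 5641 with NETs and 3855, 3825 and 3773 without.

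**Figure D3:**
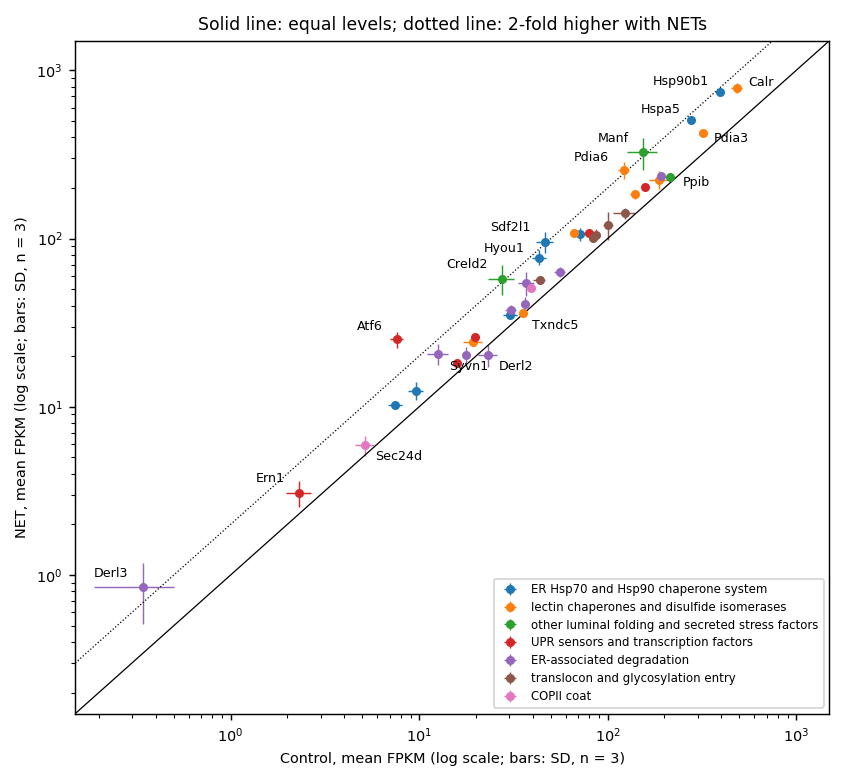
Mean FPKM of each of the 41 genes with NETs (vertical, log scale) against control (horizontal, log scale), with SD bars over 3 samples and colours by role. Nearly all genes lie above the line of equal levels, and Atf6 lies farthest above the dotted line of a 2-fold rise at 25.2 against 7.64 FPKM.

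The libraries numbered 1 stood apart within both groups for part of the genes. In 11 of the 41, among them Manf, Creld2, Selenos, Sdf2l1, Pdia6 and Calr, number 1 was the highest NET and the highest control library, against 24.2% of all genes. In another 11, among them Canx, Ssr3, Atf6 and Vcp, it was the lowest in both, against 25.9% of all genes. These shares are near those of all genes. The rise was found on both sides of this split. Between the libraries numbered 1, 41 of 41 genes were higher in the NET library, with a median log2 ratio of 0.41. Between the means of the libraries numbered 2 and 3, 38 of 41 were, with a median of 0.35. With both libraries numbered 1 left out, 26 of the 41 genes were called higher and 0 lower.

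The genes with an ERSE shown above included the leading chaperones. Of these 9 genes 7 were higher with NETs (Derl3, Pdia6, Creld2, Hsp90b1, Hspa5, Calr and Syvn1), and the log2 fold changes of the 9 ranged from 0.18 to 1.27 around a median of 0.85. Canx and Dnajc3 carried the element and were not called. Among the 25 genes of the set with a window and no ERSE, 15 were higher, with a median of 0.33 and a range of -0.05 to 1.01. Of the 7 genes without a window, Atf6 among them, 6 were higher, with a median of 0.36 and a range of 0.15 to 1.70. Of 10095 tested genes with a window 17 held the element, and of the 8 outside the set 1 was higher and 4 were lower, with a median log2 fold change of -0.48. The 1 that was higher was Ero1lb, an ER oxidase that reoxidises disulfide isomerases (0.60 ± 0.12). Pan2, a deadenylase subunit (-0.60 ± 0.09), Acacb, an acetyl-CoA carboxylase (-0.74 ± 0.17), and Spats2l (-1.34 ± 0.30) were lower. No test of the element itself was made. Of the other elements, Herpud1 and Dnajb11 with ERSE-II were both higher, and of Vcp, Sec24d and Txndc5 with TGACGTGG, Vcp was.

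**Figure D4:**
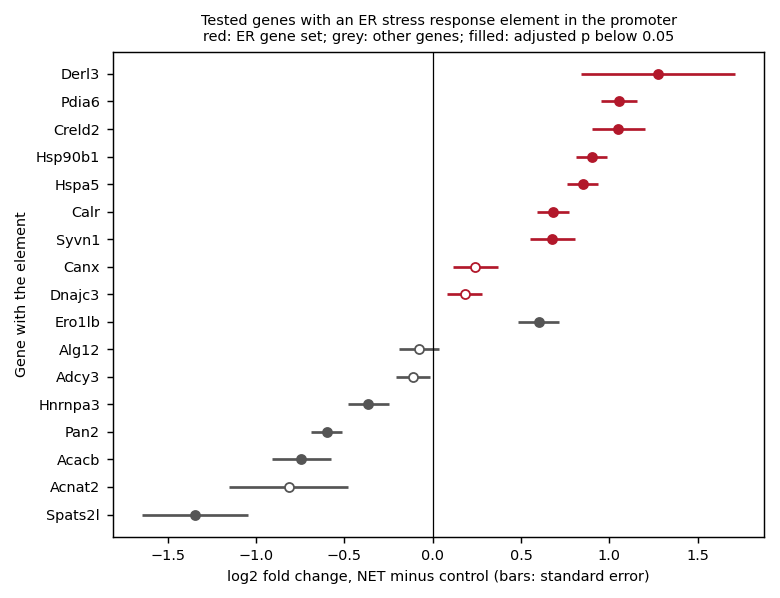
Log2 fold change (NET minus control) with its standard error for the 17 tested genes that hold an ERSE in the promoter window. The 9 genes of the ER set (red) all lie above 0, from 0.18 to 1.27, and 7 of the other 8 (grey) lie below 0, with filled points for an edgeR adjusted p below 0.05.

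Other genes of the same pathways were counted from 7 lists that hold none of the 41. Of 175 such genes tested 57 were higher and 11 lower, or 32.6% and 6.29%, against 22.3% of all tested genes in each direction. Their median log2 fold change was 0.17. The share called higher was lower than among the 41 genes in each of the 7 lists, and 6 of the 7 held genes that fell.

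Among 17 genes of oxidative folding 7 were higher (41.2%) and 0 lower. Ero1l, the main ER oxidase, had 388, 433 and 509 CPM with NETs and 170, 208 and 188 CPM without, a log2 fold change of 1.23 ± 0.12 (edgeR adjusted p = 2.87e-05). Dnajc10, the reductase ERdj5 that prepares ERAD substrates, rose by 0.81 ± 0.11 and Txndc11 by 0.57 ± 0.10 on the log2 scale. Of 20 further luminal chaperones and genes of glycan quality control 6 were higher (30.0%) and 2 lower (10.0%). Fkbp11, a prolyl isomerase known from secretory and plasma cells, rose from 0.922 to 4.81 CPM (2.38 ± 0.23) and Nucb1, a calcium-binding protein of the Golgi, rose by 0.72 ± 0.13. Rcn1, a calcium-binding protein of the ER lumen, fell from 112 to 52.6 CPM (-1.09 ± 0.10). Of 29 other ERAD genes 4 were higher and 1 lower, or 13.8% and 3.45%. The share higher was below the 22.3% of all tested genes. The ubiquitin-conjugating enzyme Ube2g2 (0.43 ± 0.10) and Fam8a1, a partner of HRD1 (0.50 ± 0.09), were higher, and Ubac2, a rhomboid-like protein of the ER (-0.66 ± 0.09), was lower. These ERAD counts were sensitive to single libraries, with 2 higher without NET sample 1 or control sample 3, 8 higher without control sample 1, and 2 lower without NET sample 1 or control sample 2 and 3 lower without control sample 1.

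Of 32 other genes of the translocon, signal peptidase and oligosaccharyltransferase 12 were higher (37.5%) and 2 lower (6.25%). Both chains of the signal recognition particle receptor rose, Srpr by 0.55 ± 0.08 and Srprb by 0.51 ± 0.09 on the log2 scale, and Sec11c, a catalytic subunit of signal peptidase, fell from 88.3 to 47.4 CPM. Of 31 genes of ER to Golgi transport 7 were higher and 1 lower, a share near that of all genes, but 11 were higher with upper-quartile scaling and 4 without NET sample 1 or control sample 2. Lman1, a cargo lectin (0.53 ± 0.09), and Sec31a, the outer COPII coat (0.46 ± 0.09), rose, and the cargo-binding Sec24a fell (-0.60 ± 0.12).

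Of 18 further UPR sensors, proteases and regulators 7 were higher (38.9%) and 2 lower (11.1%). The site-2 protease Mbtps2, which completes the cleavage of ATF6, had 46.7, 56.5 and 57.9 CPM with NETs and 29.4, 36.6 and 34.7 CPM without, and rose by 0.68 ± 0.12. The site-1 protease Mbtps1 (-0.14 ± 0.09) and the ATF6 homolog Atf6b (0.19 ± 0.15) were not called. Creb3l2, an ER-bound transcription factor of secretory cells, rose from 5.93 to 11.4 CPM. Crebrf, which has been described as a negative regulator of the UPR factor CREB3, fell from 81.9 to 40.8 CPM, and the stress kinase Map3k5 fell by 0.57 on the log2 scale.

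The 28 targets of ATF4 and CHOP in the integrated stress response moved mostly upward, with 14 higher and 3 lower and 23 positive log2 fold changes. Their median log2 fold change was 0.42, and 1 was lower without NET sample 2. Atf3, a stress transcription factor, had 40.1, 39.3 and 55.2 CPM with NETs and 10.9, 7.27 and 7.10 CPM without (2.41 ± 0.19). Cth, the enzyme that makes cysteine from cystathionine, had 46.9, 46.5 and 48.4 CPM against 9.73, 9.38 and 11.3 CPM (2.22 ± 0.11). In both genes the groups were far apart. The amino acid transporters Slc7a5 (0.78 ± 0.11) and Slc7a11 (1.36 ± 0.19) and the eIF2α phosphatase subunit Ppp1r15a, counted with the regulators (0.43 ± 0.12), also rose. The tryptophanyl-tRNA synthetase Wars (-0.54 ± 0.08) and Trib3, a pseudokinase that CHOP is known to induce (-0.40 ± 0.12), fell. Chac1, another classical target, was not called (0.29 ± 0.16, edgeR adjusted p = 0.163).

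**Figure D5:**
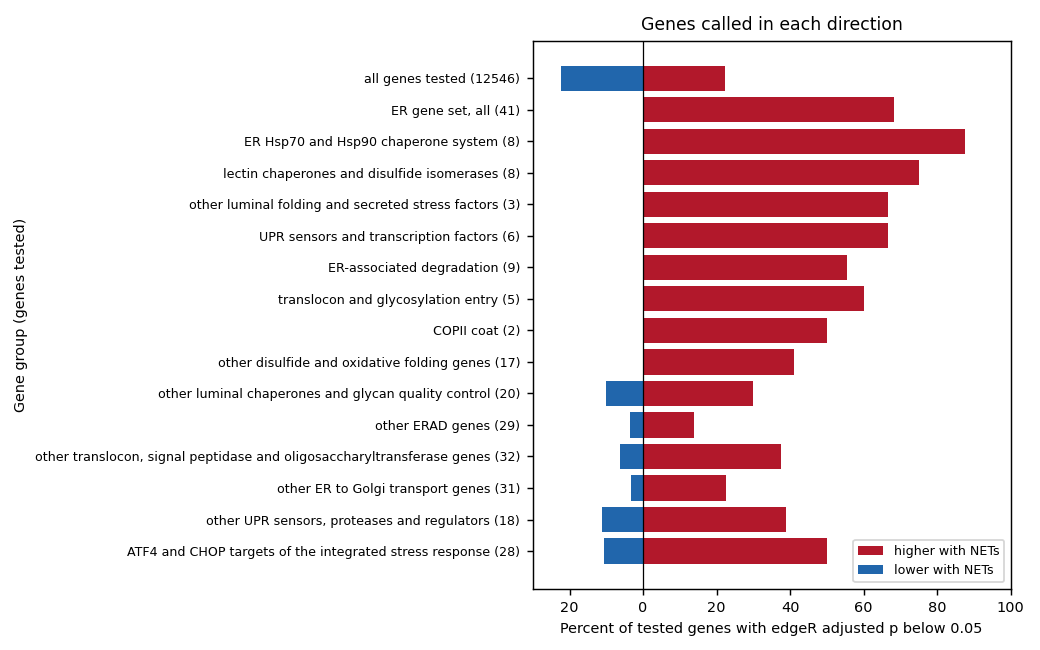
Percent of tested genes with an edgeR adjusted p below 0.05 that were higher (red, to the right) or lower (blue, to the left) with NETs, for all genes, the 41 ER genes, their 7 role groups and the 7 lists of other pathway genes, with the number of genes tested in brackets. The 41 ER genes have 68.3% higher and none lower, against 22.3% in each direction for all genes.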

How the data were processed

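RNA of 6 samples (3 NET, 3 control) was measured by poly(A) RNA-seq with dUTP strand marking. The authors deposited estimated counts per gene, not scaled between libraries, of which 31.6% were whole to within 0.005, and FPKM values, which the authors scaled for transcript length and library size. Genome build mm10 is named in the submitters' processing notes. The aligner, the counting program and strand use are not given in the sources used here. Genes blank in all samples (6459) were treated as missing, and the other 15605 were used.

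Estimated counts were rounded, filtered with filterByExpr and scaled by TMM, and the groups were compared with the edgeR 4.0.16 quasi-likelihood test in R 4.3.3 (group as the only term, two-sided, Benjamini-Hochberg adjustment over 12546 genes, threshold 0.05). CPM values are TMM-scaled. Standard errors were taken from the F statistic. Alternatives were other scalings and filters, DESeq2 1.42.0, limma-voom and limma on log2(FPKM + 1) or log2(FPKM + 0.1) with limma 3.58.1, a block for the replicate number, and fits without single libraries. Gene coordinates and promoter windows came from RefSeq (GRCm38.p6, the assembly of mm10) and exon overlaps from GENCODE.

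The 41 genes, the 7 pathway lists and the cell type markers were chosen with earlier results of these data known. Named were all 41 genes, the 3 genes of each pathway list with the smallest adjusted p, the gene with the smallest adjusted p against the direction of its list, the most abundant markers, and the 3 genes outside the lists with the smallest adjusted p for an element. Jchain, Mzb1, Sdc1, Pou2af1, Cd8a, Cd5, Itgax, Xcr1, Batf3, Zbtb46, Cxcr2, Mmp8 and Prtn3 were named after their values were seen. So were Elane, Ltf, Camp, Ngp, Ero1lb, Mbtps1, Mbtps2, Atf6b, Ppp1r15a, Slc7a11, Trib3 and Chac1. Not every gene under the naming rule is described. Retrieval signals at protein ends, though planned, were not analysed here. The erythroid list held 1 tested gene, Alas2, which was not called.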

Additional observations from a re-analysis of the deposited data

How the results depend on the processing

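Over 18 other settings 21 to 30 of the 41 genes were called higher and 0 lower, 19 genes were called higher under every setting, and 26 kept direction and call throughout. The fold threshold of 0.58 left 12 genes. The replicate numbers were shared between groups in the labels, but same-numbered samples did not all deviate together (correlations of 0.433, 0.138 and 0.045), so the numbers were not taken as pairs. With the replicate number as a block, 30 of the 41 genes were higher (Canx at an edgeR adjusted p of 0.0128 and Dnajc3 at 0.0490 were added), and of the other pathway genes 77 were higher and 18 rather than 11 lower. The block also gave 7 higher and 4 lower among other ERAD genes and 12 higher among ER to Golgi genes. Without single libraries the count of the 41 genes called higher ranged from 21 to 27, that of other pathway genes from 43 to 61 higher and 9 to 14 lower. The median log2 fold change of the 41 genes was 0.41 with upper-quartile scaling (all genes 0.04), 0.39 with library totals, 0.39 on log2(FPKM + 0.1) and 0.35 to 0.39 without single libraries. Upper-quartile scaling also called Ern1 (edgeR adjusted p = 0.0488). Values near 0 changed sign. Ppib was at -0.01 with both libraries numbered 1 left out. Txndc5 was at 0.042 with upper-quartile scaling, 0.014 with library totals, 0.001 with TMM without the top 1% of genes, 0.007 with at least 50 counts in 3 samples, 0.012 on log2(FPKM + 1), 0.013 on log2(FPKM + 0.1), and -0.03 to 0.039 without single libraries. The cause of these shifts was not tested. Derl3 was not tested with the stricter filter, since its counts were too low. Depth limits the precision most for Derl3, which had 4 to 30.03 estimated counts per library.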
